A study of Mus musculus with 8 samples.

Results

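The Dlk1 to Dio3 locus is an imprinted domain of mouse chromosome 12, taken here as 6 genes, Dlk1, Meg3, Rtl1, Rian, Mirg and Dio3, of the 49943 genes annotated on the 21 chromosomes of the region list. The interval studied ran from 100 kb below the lowest to 100 kb above the highest outer limit of these genes, chr12:109352485-110381097 on mm10 (1028.6 kb). It held 36 of the 76872 accessible regions of the series. The genes were chosen by name and the regions by position, not by a measured value, although earlier results of these data were known. Regions came from ATAC-seq, which marks open DNA by inserting adapters with the Tn5 transposase, in 8 libraries of 50000 mouse induced pluripotent stem cells each, from a clonal line with the FUCCI2 reporters of cell cycle phase, so all libraries go back to 1 clone. The groups, with 2 libraries each, were cells held in mitosis by nocodazole (200 ng/ml for 6 hours) and shaken off, cells released from this arrest for 1 hour, cells released for 3 hours, and asynchronous cells without nocodazole. All of them were grown on irradiated feeder cells in serum with LIF and inhibitors of MEK and GSK3. The deposited list is shared by the 8 libraries and holds positions only. The values below therefore describe where the list places open chromatin, and neither a level, a depth, an allele nor a difference between arrested, released and asynchronous cells can be given.

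In an imprinted domain the copies inherited from mother and father differ in DNA methylation and in which genes they express. On the paternal copy of this locus the protein-coding genes are active. They are Dlk1, which encodes a transmembrane protein related to Notch ligands that restrains fat cell differentiation, Rtl1, a gene derived from a retrotransposon and needed in the placenta, and Dio3, which encodes a deiodinase that inactivates thyroid hormone. On the maternal copy long noncoding RNAs are made, namely Meg3, Rian, which carries small nucleolar RNAs (snoRNAs), and Mirg, which carries microRNAs. A control region between Dlk1 and Meg3 that is methylated on the paternal copy sets this pattern, and gain of methylation on the maternal copy silences the noncoding RNAs in many induced pluripotent lines. The allelic state of the line studied was not measured by the list.

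Of the 36 regions, 14 lay in a block from the end of Mirg upward and 4 lay between Dlk1 and Meg3. At the members, open regions lay at the coding genes at either edge of the domain, near the start of Meg3 and among the microRNAs inside Rtl1. The stretch from Rtl1 through Rian to the end of Mirg held none. Shown beside this pattern are the promoter windows of the members and the microRNAs next to a region. The windows run from 250 bases before to 50 after the start site. RefSeq (GRCm38.p6) gave a window for 5 of the 6 members. They are shown because only that of Dio3 overlapped a region. Capitals mark CpG dinucleotides, the sites of DNA methylation, and each window reads 5′ to 3′ on the strand of its gene.
Dlk1 (chr12:109452573-109452872, + strand): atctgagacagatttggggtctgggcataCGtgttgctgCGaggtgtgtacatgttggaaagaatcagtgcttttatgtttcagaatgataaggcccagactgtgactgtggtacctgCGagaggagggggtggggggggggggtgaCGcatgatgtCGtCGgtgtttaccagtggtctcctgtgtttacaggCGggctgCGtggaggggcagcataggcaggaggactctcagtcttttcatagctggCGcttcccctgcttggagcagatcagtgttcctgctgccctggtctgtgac
Meg3 (chr12:109540746-109541045, + strand): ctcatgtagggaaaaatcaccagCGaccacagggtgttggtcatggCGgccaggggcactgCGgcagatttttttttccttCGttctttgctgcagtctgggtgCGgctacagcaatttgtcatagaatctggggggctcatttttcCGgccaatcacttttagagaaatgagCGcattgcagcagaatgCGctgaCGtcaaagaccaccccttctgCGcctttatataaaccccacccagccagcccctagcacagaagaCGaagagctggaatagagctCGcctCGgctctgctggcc
Rian (chr12:109603695-109603994, + strand): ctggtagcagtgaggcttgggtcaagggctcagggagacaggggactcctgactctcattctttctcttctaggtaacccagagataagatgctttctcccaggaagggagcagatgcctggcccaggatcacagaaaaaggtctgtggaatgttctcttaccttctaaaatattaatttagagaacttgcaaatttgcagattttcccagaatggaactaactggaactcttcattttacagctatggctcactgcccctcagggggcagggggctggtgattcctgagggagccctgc
Mirg (chr12:109734731-109735030, + strand): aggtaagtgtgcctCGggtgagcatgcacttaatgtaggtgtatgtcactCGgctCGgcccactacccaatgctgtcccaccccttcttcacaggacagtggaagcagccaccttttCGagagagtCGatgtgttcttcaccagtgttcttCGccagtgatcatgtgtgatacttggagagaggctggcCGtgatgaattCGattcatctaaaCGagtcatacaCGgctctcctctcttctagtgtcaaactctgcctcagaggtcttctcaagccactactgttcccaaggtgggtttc
Dio3 (chr12:110278980-110279279, + strand): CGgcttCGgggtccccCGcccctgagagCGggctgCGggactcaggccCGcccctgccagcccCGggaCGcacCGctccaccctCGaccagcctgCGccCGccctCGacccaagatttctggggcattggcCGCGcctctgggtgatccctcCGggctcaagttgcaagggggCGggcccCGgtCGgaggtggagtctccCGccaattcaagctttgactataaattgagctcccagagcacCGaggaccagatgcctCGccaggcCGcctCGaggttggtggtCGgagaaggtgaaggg

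The microRNA genes within 1 kb of a region were Mir1906-1, Mir434, Mir432, Mir3071, Mir136 and Mir1247. Their mature forms in RefSeq are shown 5′ to 3′ with the seed, bases 2 to 8, which pairs with target messenger RNAs, in capitals.
mmu-miR-1906: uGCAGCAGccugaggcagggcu
mmu-miR-434-5p: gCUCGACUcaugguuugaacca
mmu-miR-434-3p: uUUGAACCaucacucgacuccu
mmu-miR-432: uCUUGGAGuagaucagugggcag
mmu-miR-3071-5p: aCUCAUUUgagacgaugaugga
mmu-miR-3071-3p: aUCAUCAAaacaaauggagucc
mmu-miR-136-5p: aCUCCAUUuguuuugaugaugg
mmu-miR-136-3p: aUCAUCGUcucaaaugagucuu
mmu-miR-1247-5p: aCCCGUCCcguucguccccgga
mmu-miR-1247-3p: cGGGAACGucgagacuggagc
No 2 of these 10 forms shared a seed.

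The 36 regions gave 35.0 per Mb, beside 30.7 per Mb on chromosome 12 and 30.4 per Mb over the 19 autosomes. Chromosome lengths ran from the first to the last annotated gene or region, so stretches without regions at chromosome starts were counted in. Without flanks the interval gave 31.4 per Mb. The 36 regions covered 12.5 kb, or 1.22% of the interval, against 1.11% of the autosomes. When windows of the same length were laid end to end over the autosomes, the 2366 windows held a median of 27 regions, with quartiles of 16 and 43. Fewer than 36 regions were found in 1534 of them and more in 787. The interval touched 3 protein-coding genes, all of them members, and of the 170 windows that also touched 3, the median was 21 regions and 160 held fewer than 36. These counts place the locus above the median of the windows and draw on no replicate.

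**Figure D1:**
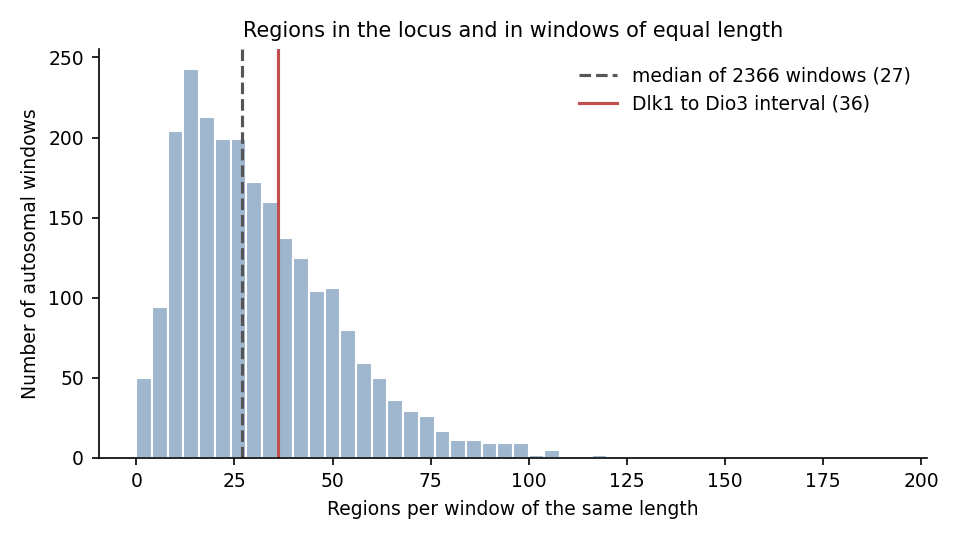
Number of accessible regions per window for 2366 autosomal windows as long as the Dlk1 to Dio3 interval (x axis, regions; y axis, windows). The red line marks the 36 regions of the interval, to the right of the dashed median of 27.

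The median width of the regions was 219.5 bp (quartiles 137.8 and 476 bp, range 73 to 1156 bp), against 281 bp over the whole list (quartiles 152 and 498 bp). With flanks of 50 kb in place of 100 kb it was 330 bp, so its side of the median of the list depends on the flanks. A single region of the interval, 2.78%, had the minimum width of 73 bp, against 3.97% of the list. The 5 widest were those of 1156 bp in Meg3, 1150 bp at chr12:110349264-110350413, 856 bp at chr12:109948075-109948930, 809 bp at chr12:109911036-109911844 and 653 bp in Rtl1. The region of 1150 bp lay 68.2 kb above Dio3, and those of 856 and 809 bp lay 199 and 162 kb above Mirg. Of these 5, those of 1156 and 653 bp touched a member gene.

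Along the chromosome the regions formed 3 blocks divided by the 2 longest gaps inside the interval. The lowest block, from below Dlk1 into Rtl1, had 13 regions over 206 kb. The second, from the end of Mirg upward, had 14 over 209 kb, and the block around Dio3 had 9 over 190 kb. The gaps between them were 154.5 and 228.7 kb long, where the median gap of the autosomes was 13.3 kb. Gaps of at least these lengths made up 3.45% and 1.47% of the 74137 autosomal gaps. Median widths were 146 bp in the lowest block, 349.5 bp in the second and 197 bp around Dio3.

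**Figure D2:**
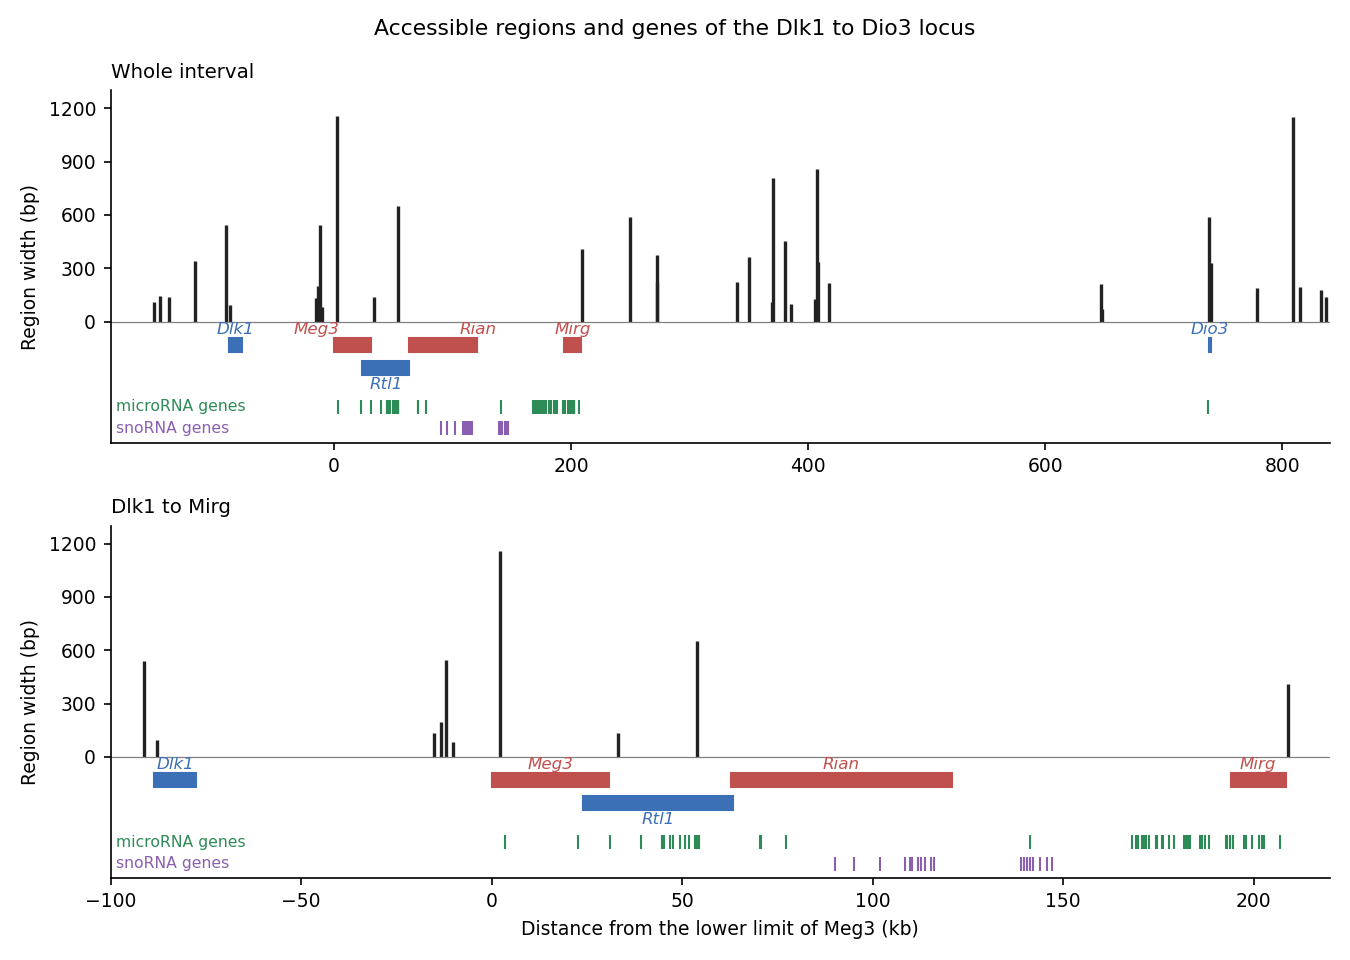
Regions (black, height is width in bp) and genes by distance from the lower limit of Meg3 in kb, for the whole interval above and for Dlk1 to Mirg below. Blue bars are protein-coding members, red bars long noncoding members, and ticks are microRNA genes (green) and snoRNA genes (purple). No region stands over Rian, Mirg or the snoRNA genes.

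Of the 6 members, 3 had a region within 1 kb of an outer limit, namely Dlk1, Mirg and Dio3. Over all genes this share was 38.9%. Among the protein-coding members it was 2 of 3, beside 62.0% of all protein-coding genes, and among the noncoding members 1 of 3, beside 31.5% of all long noncoding RNA genes. With 3 genes of each kind, nothing is read from how these counts stand to the shares of all genes.

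Dlk1 (gene ID 13386, chr12:109452485-109463336) was touched by 1 region, of 93 bp at chr12:109453190-109453282, which lay 705 bp inside its lower limit. This region is narrow, and 90.2% of the list is wider. It began 318 bp beyond the promoter window shown above. A wider region of 542 bp, chr12:109449381-109449922, lay 2.56 kb below the gene, and the upper limit of Dlk1 was 10.1 kb from any region. Thus the open chromatin assigned to Dlk1 sat near its start and just below it, with none at its far end. Within 50 kb of Dlk1 there were 3 regions, where protein-coding genes had a median of 7 (quartiles 3 and 10). Here and below, this count includes the gene itself and so covers a longer stretch for a longer gene. The genes set beside each member for it were of all lengths.

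Between Dlk1 and Meg3, 4 regions lay together in 5.11 kb, chr12:109525763-109530868, and no other region lay between these genes. In order from the Dlk1 side they were 132, 199, 543 and 85 bp wide. The group began 62.4 kb above Dlk1 and ended 10.1 kb below Meg3, inside Gm34081, an annotated long noncoding RNA gene. The methylated control region of the domain also lies between these genes, but its limits were not at hand, so no region was assigned to it. Of 74156 autosomal regions, 2451 (3.31%) belonged to a run of 4 or more as close together as this group.

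Meg3 (gene ID 17263, chr12:109540996-109571729) held the widest region of the interval, of 1156 bp at chr12:109542572-109543727. Only 1.87% of the list is wider. It began 1.58 kb above the lower limit of Meg3, where transcription starts, and so fell outside the 1 kb reach used for gene ends. With a reach of 2 kb Meg3 was counted as well, making 4 of 6 members, beside 67.0% of protein-coding and 39.7% of long noncoding RNA genes with that reach. The promoter window of Meg3 itself was 1527 bp from the region. RefSeq lists a second start of Meg3 at 109545398, and its window was 1421 bp from the same region on the other side. The region thus lay between the annotated starts and overlapped neither window. There were 7 regions within 50 kb of Meg3, against a median of 4 for long noncoding RNA genes (quartiles 2 and 7).

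Rtl1 (gene ID 353326, chr12:109564900-109604418) overlaps the end of Meg3 and the start of Rian in the annotation. Regions of 137 bp (chr12:109574189-109574325) and 653 bp (chr12:109594600-109595252) lay inside it, 9.29 and 9.17 kb from its lower and upper limit. The list has no strand, so a region in this overlap cannot be given to Rtl1 or to the microRNAs read from the other strand. The wider region contained Mir432 whole and began at the base after the end of Mir434. Mir3071 and Mir136, which overlap each other on opposite strands, lay 66 and 75 bp above it. The genes of miR-434, miR-432, miR-3071 and miR-136, printed above, thus lay within or directly beside a single region.

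Rian (gene ID 75745, chr12:109603945-109661716) was touched by no region over its 57.8 kb. Its lower limit was 8.69 kb and its upper limit 66.5 kb from the nearest region. Of 1714 other long noncoding RNA genes with a length within a factor of 2 of that of Rian, 63.1% were touched by a region. Rian, in contrast, lay wholly in a stretch without one. Its promoter window, printed above, holds 0 CpG dinucleotides.

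Mirg (gene ID 100040724, chr12:109734981-109749458) was likewise touched by none. Its start was 14.8 kb from the nearest region, and a region of 411 bp, chr12:109749762-109750172, lay 304 bp beyond its upper limit. Among long noncoding RNA genes of like length, 43.1% were touched by a region. For Dlk1, Meg3 and Rtl1, which were touched, the shares among genes of their type and like length were 72.1%, 53.3% and 86.4%. Rian and Mirg each had 2 regions within 50 kb, the lower quartile for their type.

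Dio3 (gene ID 107585, chr12:110279230-110281097) was the only member with a region at both limits, as were 8.47% of protein-coding genes. A region of 589 bp, chr12:110278786-110279374, spanned its start, and a region of 330 bp, chr12:110280441-110280770, lay inside the gene and ended 327 bp below its upper limit. The former contained the whole promoter window of Dio3. The gene is 1.87 kb long, so both ends are close together. Of 3137 other protein-coding genes of like length, 33.5% were touched by a region. The nearest regions beyond those of the gene lay 38.3 kb above and 90.3 kb below it, and 3 regions lay within 50 kb.

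The promoter windows of the members differed in CpG content in the order Dio3 with 25, Meg3 with 13, Mirg with 10, Dlk1 with 9 and Rian with 0. Over the 32851 windows of the RefSeq table the median was 7 (quartiles 3 and 20), and 41.8% of them overlapped a region. This share was 4.79% for windows with 0 to 4 CpG dinucleotides, 23.3% with 5 to 9, 60.5% with 10 to 14, 83.3% with 15 to 19 and 90.3% with 20 to 29. Dio3 thus belonged to a class in which most windows overlapped a region, Rian and Dlk1 to classes in which few did, and Meg3 and Mirg to the class of 60.5%, although their own windows did not. Dio3os, a noncoding gene that runs away from Dio3 on the other strand, had a window with more CpG dinucleotides than that of any member. It is shown because it overlapped no region, although 86.7% of the windows with 30 or more CpG dinucleotides did.
Dio3os (chr12:110278019-110278318, - strand): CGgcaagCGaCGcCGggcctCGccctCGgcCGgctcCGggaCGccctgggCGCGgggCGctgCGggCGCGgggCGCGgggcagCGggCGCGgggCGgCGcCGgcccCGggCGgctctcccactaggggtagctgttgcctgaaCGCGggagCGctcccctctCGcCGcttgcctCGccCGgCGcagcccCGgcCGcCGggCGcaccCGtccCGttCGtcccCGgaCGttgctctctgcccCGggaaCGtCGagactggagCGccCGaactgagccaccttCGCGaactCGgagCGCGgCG
The Dio3os window held 53 CpG dinucleotides, a number reached by 0.451% of all windows, and ended 468 bp below the region at the start of Dio3. Both mature forms of miR-1247, printed above, lie inside it on the same strand. The window of Mirg likewise holds miR-668-5p, miR-668-3p and miR-485-3p on its own strand.

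**Figure D3:**
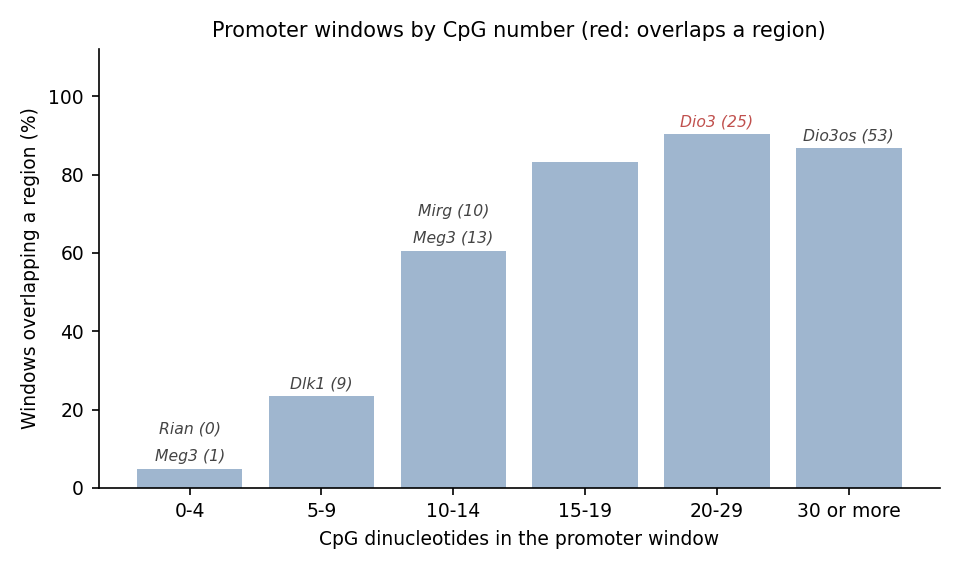
Share of RefSeq promoter windows overlapping a region (y axis, percent) by number of CpG dinucleotides (x axis). Gene names with their CpG number stand over the class of their window, red for a window that overlaps a region. Only Dio3 is red, and Meg3 appears for each of its 2 starts, with 13 and 1.

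Short motifs were searched in these windows on both strands, with positions counted from 1 at the 5′ end. A match is the motif or its reverse complement, so the printed strand can read either at a given position. For example, the Meg3 window reads TTTATA at position 222 and TATAAA at 226. The GC box GGGCGG was found 4 times in the Dio3 window, at positions 16, 48, 99 and 171, 2 times in that of Dio3os, and not in those of Dlk1, Meg3, Rian or Mirg. It is present in 35.7% of all windows. The upstream window of Meg3 held the cAMP response element TGACGTCA at position 194, a motif present in 1.79% of windows, and the hexamer TGCCGC at position 61, the recognition sequence of the imprint-protecting factor Zfp57, present in 11.6%. It also held CCAAT at position 151 (37.4% of windows) and TATAAA at positions 222 and 226, where the matches overlap (13.6%). Dio3 had TATAAA at position 220 and CCAAT at positions 126 and 203, and Mirg had CCAAT at position 67. None of the 5 motifs was found in the windows of Dlk1 and Rian. A match describes the letters of 1 strand or the other only, and binding was not measured.

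The interval holds 61 microRNA genes, all of them in the RefSeq sequence table, and 19 snoRNA genes. A region lay within 1 kb of 6 microRNA genes (9.84%), beside 18.2% of the 1228 microRNA genes of the genome, and touched 1, Mir432. Besides the 4 genes in Rtl1, Mir1906-1 lay 814 bp above the region in Meg3 and Mir1247 lay 657 bp below the region at Dio3. The median distance from a microRNA gene of the locus to a region was 15.6 kb (quartiles 6.39 and 30.9 kb). Over all microRNA genes it was 6.37 kb (quartiles 1.73 and 18.1 kb). No snoRNA gene of the locus had a region within 1 kb, beside 11.4% of all snoRNA genes, and the nearest was 35.8 kb away. Neighbouring genes share the same regions, so these counts rest on few independent positions.

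The gap of 154.5 kb from Rtl1 to Mirg, chr12:109595253-109749761, contained 68 annotated genes, of which 45 were microRNA and 19 snoRNA genes, with Rian and Mirg among the rest. Autosomal gaps of at least this length contained a median of 1 gene. Only 2 other gaps of any length on the autosomes contained as many. How far reads can be placed among such clustered genes was not tested. The gap of 228.7 kb below Dio3 contained 5 genes, all annotated as long noncoding RNAs. Within the former gap lie the 38 microRNA genes from Mir379 to Mir410, spread over 34.7 kb and all between 5.97 and 40.6 kb from a region. Some microRNAs of the interval share a seed. Of the 113 mature forms of the interval, 18 shared their seed with another, in 9 pairs. 2 of these pairs are shown to compare these region-free microRNAs with those printed above, seeds in capitals.
mmu-miR-379-5p: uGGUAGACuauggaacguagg
mmu-miR-1193-5p: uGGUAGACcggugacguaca
mmu-miR-379-3p: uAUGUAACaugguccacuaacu
mmu-miR-411-3p: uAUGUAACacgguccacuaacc
The forms in each pair match over the seed and differ beyond it, and the gene of none of them lies within 30 kb of a region.

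**Figure D4:**
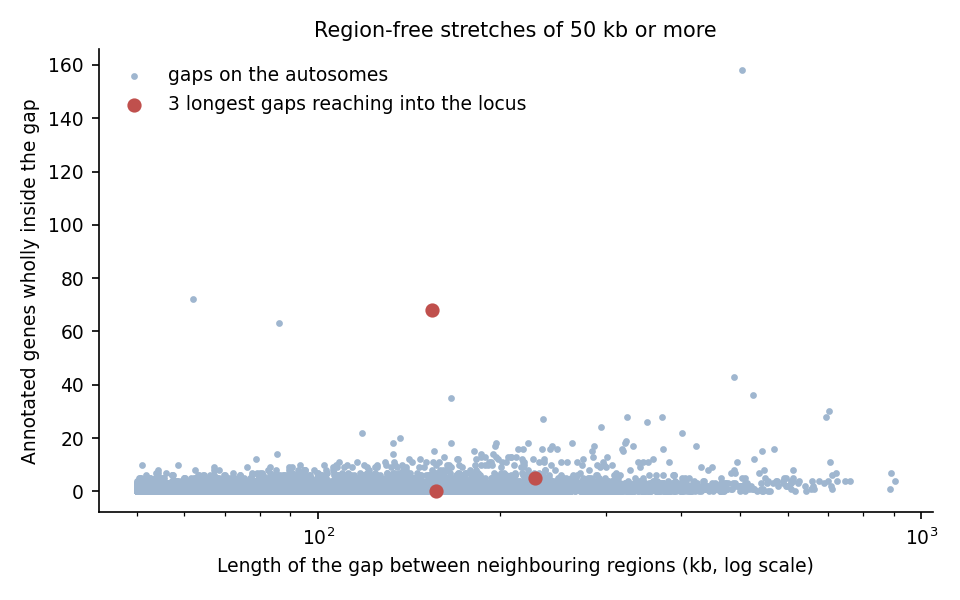
Number of annotated genes wholly inside each autosomal gap of 50 kb or more between neighbouring regions (y axis) against gap length in kb (log x axis). Red points are the 3 longest gaps reaching into the locus, of which the one of 154.5 kb contains 68 genes and those of 156.7 and 228.7 kb contain 0 and 5.

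Of the 13 other long noncoding RNA genes of the interval, 2 had a region within 1 kb of an end, beside 31.5% of all such genes. Gm34554 (chr12:109921901-109947478), in the middle block, had a region at each limit and 3 touching it. Dio3os had a region 718 bp from its upper limit, which was the region at the start of Dio3. The pseudogene Gm9063 also had a region at its lower limit, of 187 bp at chr12:110319381-110319567. The 4 regions between Dlk1 and Meg3 were not at an outer end of Gm34081. RefSeq also lists a start of Gm34081 at 109526269, within this group of regions. The promoter window of that start overlapped no region and lay 326 bp from the nearest. This start was picked after its value was seen.

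Genes listed for comparison gave the following counts. The protein-coding genes next to the domain, Begain at 384 kb below Dlk1 and Ppp2r5c at 166 kb above Dio3, each had a region at an end. Of 16 protein-coding flanking genes, 14 were open within 1 kb of a limit, beside 62.0% of all protein-coding genes. The list of flanking genes also held Dio3os, which lies inside the interval and was counted through the region at the start of Dio3, so with it the count was 15 of 17. The most regions within 50 kb were 23 at Ppp2r5c, which encodes a regulatory subunit of protein phosphatase PP2A, and 17 each at Evl and Tecpr2. For this and the other lists, such counts were not adjusted for gene length. Wdr20 and Slc25a47 had no region at an end. Among imprinted genes of other loci, 20 of 25 protein-coding and 3 of 4 long noncoding genes had a region at an end. Over all genes of these types the shares were 62.0% and 31.5%. Usp29 and Snrpn led with 23 and 17 regions within 50 kb. Snrpn, Phlda2, Nnat, Mest, Igf2 and H19 had none at an end, and of these Phlda2 and H19 were touched by no region, the nearest being 2.49 and 32.5 kb away. The difference between these lists and the 6 members was not tested.

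Among 17 protein-coding genes that act on the methylation of imprinted loci, 12 (70.6%) had an outer limit within reach of a region, which is near the 62.0% of all protein-coding genes. Each of these 17 genes was touched by at least 1 region, as were 71.3% of all protein-coding genes. Zfp57, which protects imprints from loss of methylation, had 19 regions within 50 kb, and the DNA methyltransferase gene Dnmt3a and the demethylation enzyme gene Tet1 had 18 each. Dnmt3a, Dnmt1, Dnmt3l, Aff3 and Zfp445 had no region at an outer limit, and Dnmt3a was touched by 12 regions inside it. As a check of the cell type, 9 of 10 naive pluripotency markers and 3 of 10 fibroblast markers had a region at an end. All of these markers are protein-coding, and the share of all protein-coding genes was 62.0%. Nanog and Pou5f1 led the former with 19 regions within 50 kb each, and Esrrb had none at an end. Of the fibroblast markers, Col1a1 and Fn1 led with 11 and 9, Twist2 was the other with a region at an end, and Pdgfra, Thy1, Col3a1, Lum, Col1a2, Dcn and Postn had none there. The share of feeder cells in the libraries was not tested.

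**Figure D5:**
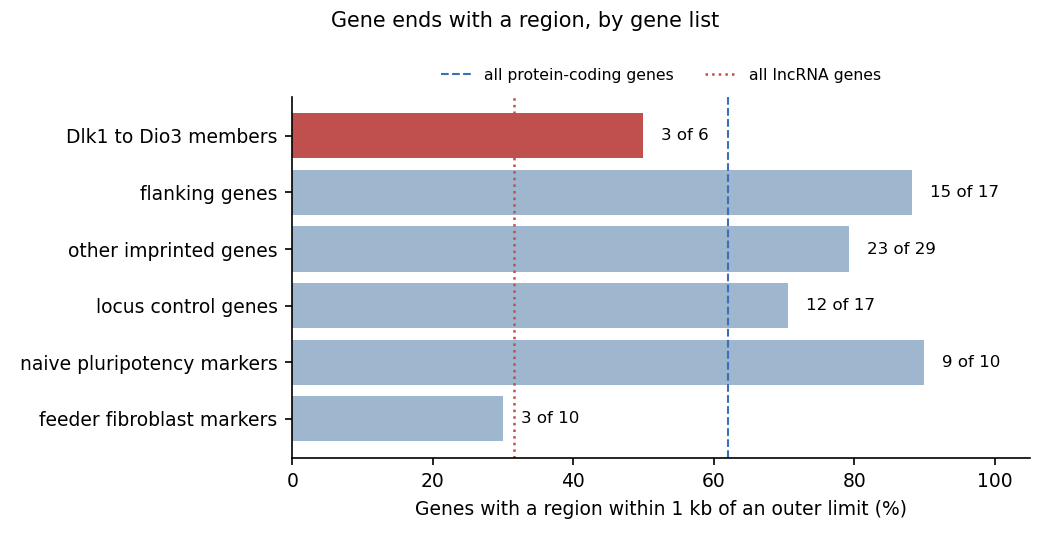
Share of genes with a region within 1 kb of an outer limit (x axis, percent) for the 6 members of the locus (red) and 5 gene lists (blue), with counts beside each bar. The dashed and dotted lines mark all protein-coding genes (62.0%) and all long noncoding RNA genes (31.5%). The members stand at 3 of 6 and the flanking genes at 15 of 17, of which Dio3os lies inside the interval and was called through the region of Dio3. The members include 3 long noncoding RNA genes, whereas the lists are mostly or wholly protein-coding, so the bars mix unlike gene types.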

How the data were processed

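The authors deposited 1 list of regions for the 8 ATAC-seq libraries, with chromosome, start and end in base pairs and no other value. Per the submitters' processing notes, cutadapt, Bowtie2, Picard, SAMtools, bedtools and MACS2 2.1.1 were used with GRCm38 (mm10). Their settings, the shift of reads for Tn5, the handling of reads that align to several places and the merging of libraries were not given in the sources used here. GEO's labels name total RNA and a transcriptomic source, against their titles and protocol, which were followed. They do not say whether replicates came from separate cultures. Depth is unknown.

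Starts were counted from 1. Regions were set against outer gene limits, promoter windows and microRNAs of RefSeq GRCm38.p6 with Python 3.11.15 and pandas 2.3.3. At least 1 bp had to overlap. Distances run between the nearest bases, so adjacent features are 1 bp apart. The strand of Rtl1 and exons were not used. Overlap code was tested on simulated data, with 0 disagreements in 6000 comparisons with direct counts. Members and lists were chosen with earlier results of these data known. Named were the members, every gene of the interval with a region within 1 kb, the neighbouring coding genes, from each further list the 2 genes with the most regions within 50 kb (ties included) and those with none at an end, and regions that touch a member, lie within 5 kb of one or are among the 5 widest. The 4 regions between Dlk1 and Meg3, other regions and genes of the blocks and gaps, the motifs, the CpG classes, Twist2 and the genes of like length were chosen after their values were seen. Of the names listed, Wars1 and Nespas had no entry of their own. No test was run, since no value per library was at hand.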

Additional observations from a re-analysis of the deposited data

How the results depend on the processing

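No paired analysis was possible because the list holds no value per library, and replicates could not be left out for the same reason. Of 26 alternatives, 24 differed from the reported value by at most 1.5 times. The interval held 26 to 46 regions with flanks of 0 to 200 kb and 24 when only regions of at least 150 bp were counted. With that minimum the density was 23.3 per Mb, beside 23.0 per Mb on the autosomes. The median width was 330 bp with flanks of 50 kb, above the 281 bp of the whole list, so that the lower median of the interval depends on the flanks. The members with a region at an end numbered 2 with a reach of 500 bp, with regions of at least 150 bp, and at the start alone (of 5 with a strand), and 4 with a reach of 2 or 5 kb. The shares of all protein-coding and long noncoding RNA genes were 57.8% and 25.6% at 500 bp, 67.0% and 39.7% at 2 kb and 74.7% and 53.4% at 5 kb. The microRNA genes with a region in reach numbered 4 at 500 bp, 8 at 2 kb and 11 at 5 kb. The shares of all microRNA genes were 13.4%, 28.3% and 44.4%. Depth per library, which limits what a missing region means, is unknown.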

Other observations

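The 2 autosomal gaps that contained more genes than the one from Rtl1 to Mirg also lay in clusters of small RNA genes. The gap with the most, 158 genes, lay on chromosome 7 from 59229565 to 59733342, began inside Ube3a and contained 155 snoRNA genes. Ube3a, which encodes a ubiquitin ligase, and the neighbouring Snrpn belong to another imprinted domain. The next, with 72 genes, lay on chromosome 2 from 10459740 to 10521762 inside Sfmbt2, which encodes a Polycomb-related protein, and all 72 were microRNA genes. The fourth, with 63 genes, lay on chromosome 14 and ran from Trdj2 to Traj1, joining segments of T cell receptor genes. These gaps were chosen after their values were seen. Genes in such clusters resemble one another in sequence, and how far reads can be placed in them was not tested.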
